A study of Mus musculus with 2 samples.

Results

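Nonclassical monocytes were picked out of leukocytes from pressure-overloaded mouse hearts by their transcripts. A cell counted as one when it had at least 2 UMIs (unique molecular identifiers, the tags by which captured transcripts are counted) summed over Ace, Treml4, Eno3, Cd300e and Spn, at least 1 UMI of Plac8 and at most 1 of Ly6c2. It also had to lack UMIs of the lymphocyte genes Cd3e, Cd3d and Cd79a and of the dendritic cell gene Cd209a, with the complement genes C1qa, C1qb and C1qc under 0.3% of its UMIs. Of 12407 cells kept in both libraries 136 met the rule, 1.10%, of which 37 came from the LOY library and 99 from the control library. Since these genes chose the cells, their levels are given as a description and support nothing.

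The cells came from mice whose bone marrow had been replaced by transplantation (BMT), with marrow labelled LOY (loss of the Y chromosome) in one group and Control in the other. Both groups underwent TAC, transverse aortic constriction, an operation that makes the left ventricle pump against a narrowed aorta. Left ventricles were digested with collagenases, hyaluronidase and DNase I for 30 minutes at 37 °C, and viable CD45+ RFP+ leukocytes, which the labels describe as derived from the transplant, were sorted. Each group is 1 droplet library of 3 hearts pooled after the sort, from about 8000 cells, so that no difference between LOY and control has a replicate check and no test was run. The sources used here do not give the strain, age, time after TAC, how the LOY marrow was made or which host cells remained.

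Monocytes of the mouse circulate in a classical form, high in Ly6C, that enters inflamed tissue, and a nonclassical form, low in Ly6C, that crawls along the inner wall of blood vessels and is called patrolling. Patrolling monocytes arise largely from classical ones, and in mice they depend on the nuclear receptor Nr4a1, on Cebpb upstream of it and on the fractalkine receptor Cx3cr1 for survival. They hold to endothelium through the integrin LFA-1, whose alpha chain is Itgal. Cells of this kind in a digested heart can come from vessels as well as from tissue, which these libraries cannot tell apart.

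The LOY library held 18710715 UMIs over 5475 barcodes and the control library 42640861 over 7276. Nonclassical monocytes had a median of 2368 UMIs and 1069 genes in the LOY library, against 4276 UMIs and 1675 genes in the control library. Their summed totals were 99528 and 479968 UMIs, which set the precision: a count of 0 allowed up to 30.1 CPM (UMIs scaled to a class total of 1e+06) in LOY cells and up to 6.25 CPM in control cells, taking 3 counts as the limit. All intervals are at 95% and cover counting error only. The libraries shared 31 barcodes, and 0 of the nonclassical monocytes carried one. No UMI was assigned to the RFP sequence in either library (0 UMIs).

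Nonclassical monocytes made up 0.683% of LOY cells, or 37 of 5415 (interval 0.482% to 0.941%, by the exact Clopper-Pearson method), and 1.42% of control cells, or 99 of 6992 (1.15% to 1.72%). The rule asks for whole UMIs and LOY cells were shallower, so every cell was also thinned to 1500 UMIs, leaving out 697 LOY and 195 control cells below that depth. By the rule on thinned counts the share was 0.360% in the LOY library (17 of 4718, 0.210% to 0.576%) and 1.04% in the control library (71 of 6797, 0.817% to 1.32%). The share was lower in the LOY library at both depths. The sort, the minimum of 500 UMIs per cell and the depth of each library can also set these shares, and their part was not tested.

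The labels were checked within these cells with the Y-linked genes Ddx3y, Eif2s3y, Kdm5d and Uty. Their sum was 2 UMIs in LOY nonclassical monocytes, 20.1 CPM (2.43 to 72.6, by an exact Poisson interval), against 109 UMIs in control nonclassical monocytes, 227 CPM (186 to 274). In LOY cells these genes thus stood at 8.85% of their control level (exact conditional interval 1.06% to 32.7%). A Y-linked UMI was seen in 2 of 37 LOY and 59 of 99 control cells, and after thinning to 1500 UMIs in 1 of 30 LOY cells (3.33%) and 20 of 99 control cells (20.2%). The X-linked partners Ddx3x, Eif2s3x, Kdm5c and Kdm6a together had 342 CPM in LOY and 356 CPM in control cells, 95.9% of the control level (64.3% to 139%).

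Each of the 5 markers of the rule was found in both libraries. Ace encodes angiotensin-converting enzyme (GENCODE M21 on mm10, chromosome 11, 105967945 to 105989964) and was at 613 CPM in LOY and 577 CPM in control nonclassical monocytes, in 27 of 37 and 87 of 99 cells. Treml4, a receptor of the TREM family (chromosome 17, 48264295 to 48275360), was at 291 CPM in LOY and 360 CPM in control cells. Spn, the sialoglycoprotein CD43 (chromosome 7, 127132232 to 127137823), was at 422 CPM in LOY and 413 CPM in control cells. Eno3, the beta form of enolase (chromosome 11, 70657202 to 70662513), had 251 CPM in LOY and 429 CPM in control cells, and the receptor gene Cd300e (chromosome 11, 115051917 to 115062177) had 100.5 CPM in LOY and 267 CPM in control cells. In CPM, Ace, Treml4 and Spn were close in both libraries, whereas Eno3 and Cd300e had lower values in LOY cells. Plac8, a small cysteine-rich protein of myeloid cells, had 1246 CPM in LOY and 2792 CPM in control cells. The rule asks for whole UMIs of all these genes and LOY cells were shallower. Their values therefore describe the chosen cells and do not compare the libraries.

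Members varied in how many of the 5 markers they showed. The marker sum per cell had a median of 4 UMIs in the LOY library (2 to 14) and 9 in the control library (2 to 27), or 1.55 and 2.18 per 1000 UMIs of the cell. A UMI of 3 or more of the 5 genes was present in 16 of 37 LOY and 85 of 99 control cells, and 1 LOY and 3 control cells entered on Spn alone. In the LOY library, cells with 3 to 5 of the markers had 558 CPM of Itgal and 424 CPM of Cx3cr1, and cells with 1 or 2 had 366 and 256 CPM. In the control library the values were 860.5 and 486 CPM with 3 to 5 markers, and 348 and 82.0 CPM with 1 or 2. The classical gene Ccr2 was at 379 CPM with 3 to 5 markers and 329 CPM with 1 or 2 in the LOY library, and at 188 and 379 CPM in the control library. The split uses the rule's own genes and is a description.

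**Figure D1:**
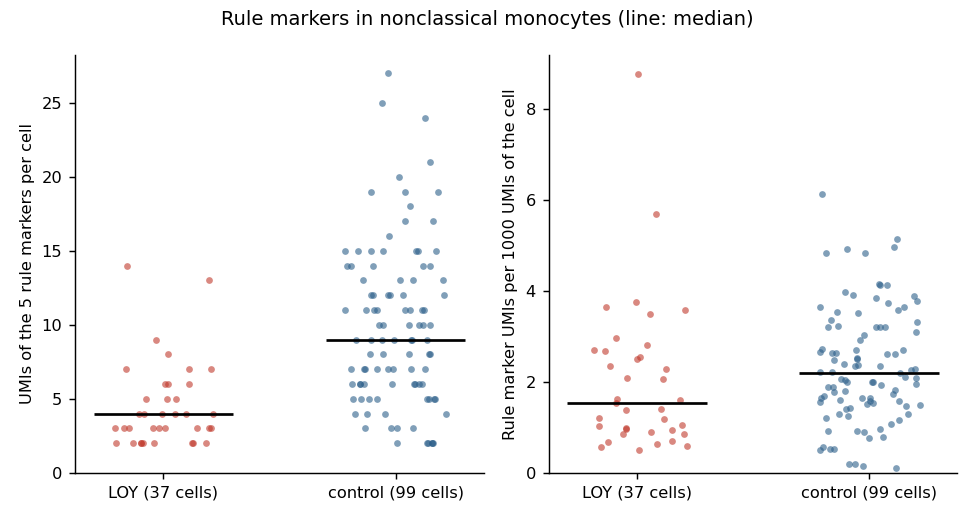
UMIs of Ace, Treml4, Eno3, Cd300e and Spn summed in each nonclassical monocyte, as whole UMIs (left) and per 1000 UMIs of the cell (right), with LOY cells left of control cells; each point is a cell and the line is the median. Medians were 4 UMIs in 37 LOY cells and 9 in 99 control cells, and 1.55 and 2.18 per 1000 UMIs.

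At the edge of the rule, 9 LOY and 6 control cells had a marker sum of exactly 2, and 11 LOY and 26 control cells met all other conditions with a sum of 1. Itgal was at 317 CPM in LOY and 86.4 CPM in control cells just inside, and at 60.0 CPM in LOY and 105 CPM in control cells just outside. Ly6c2 was at 1 UMI in 7 LOY and 7 control members, while 3 LOY and 5 control cells were left out for 2 or 3 UMIs. A UMI of any of the 5 markers was found in 2.08% of LOY B-marked cells (5 of 240, median 905.5 UMIs) and 3.12% of control B-marked cells (27 of 866, median 2109.5 UMIs), which are shallower than the members. In the C1q-high cells described below the shares were 14.6% in the LOY library (median 3255 UMIs) and 23.9% in the control library (median 5843 UMIs). How many of these UMIs come from free RNA was not tested.

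The name was set beside 18 further markers of nonclassical monocytes that the rule did not use. That list was chosen with earlier results of these data known, so it describes the cells and is not an independent check. All 18 were at a higher level than in classical monocytes in both libraries, and 13 were over 2-fold higher in both, on the scale log2((CPM + 10)/(CPM + 10)) used for every fold below unless a plain ratio is named. Of the 2927 genes with at least 30 UMIs over the nonclassical monocytes of both libraries, 44.4% were higher in both and 6.29% were over 2-fold higher in both. That minimum favours genes high in these cells, so the shares of all genes are a background with the same filter and not a test. Classical monocytes were here cells with at least 2 UMIs of Ly6c2, at least 1 of Plac8 and at most 1 of the 5 markers, low in C1q (177 LOY and 131 control cells). The control classical cells also carried 6836 CPM of neutrophil markers and 5922 CPM of haemoglobin transcripts, against 387 and 1.93 CPM in the LOY classical cells, and the part of these in the comparison was not tested. Against C1q-high cells, whose C1q transcripts reach at least 0.3% of UMIs as in macrophages (4225 LOY and 4805 control cells), 17 of the 18 were higher in both libraries and 15 were over 2-fold higher in both, beside 55% and 11.9% of all measured genes. Cx3cr1 was the exception in the LOY library, with 332 CPM in nonclassical monocytes and 555 CPM in C1q-high cells.

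Nr4a1, the nuclear receptor on which these cells depend in mice (chromosome 15, 101254269 to 101274795), was at 342 CPM in nonclassical and 65.8 CPM in classical monocytes of the LOY library, and at 921 and 296 CPM in those of the control library. Itgal, the LFA-1 alpha chain (chromosome 7, 127296260 to 127335138), was at 452 and 48.4 CPM in the LOY library, and at 756 and 114 CPM in the control library. Both genes were thus higher in nonclassical monocytes in each library. Pglyrp1, a peptidoglycan recognition protein, had 643 CPM in nonclassical and 25.1 CPM in classical monocytes of the LOY library, and 629 and 101 CPM in those of the control library. Ear2, a ribonuclease whose reads can be shared with near-identical Ear genes, had 402 and 21.3 CPM in the LOY library, and 517 and 24.0 CPM in the control library. Pou2f2, a POU domain transcription factor, had 794 and 211 CPM in the LOY library, and 869 and 130.3 CPM in the control library. The fatty acid transporter Cd36 had 171 and 1.93 CPM in the LOY library, and 206 and 12.5 CPM in the control library. Ear2 and Cd36 were among the 12 genes that stood highest over classical monocytes, but Cd36 in C1q-high cells of the control library was at 204 CPM, close to the nonclassical level.

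**Figure D2:**
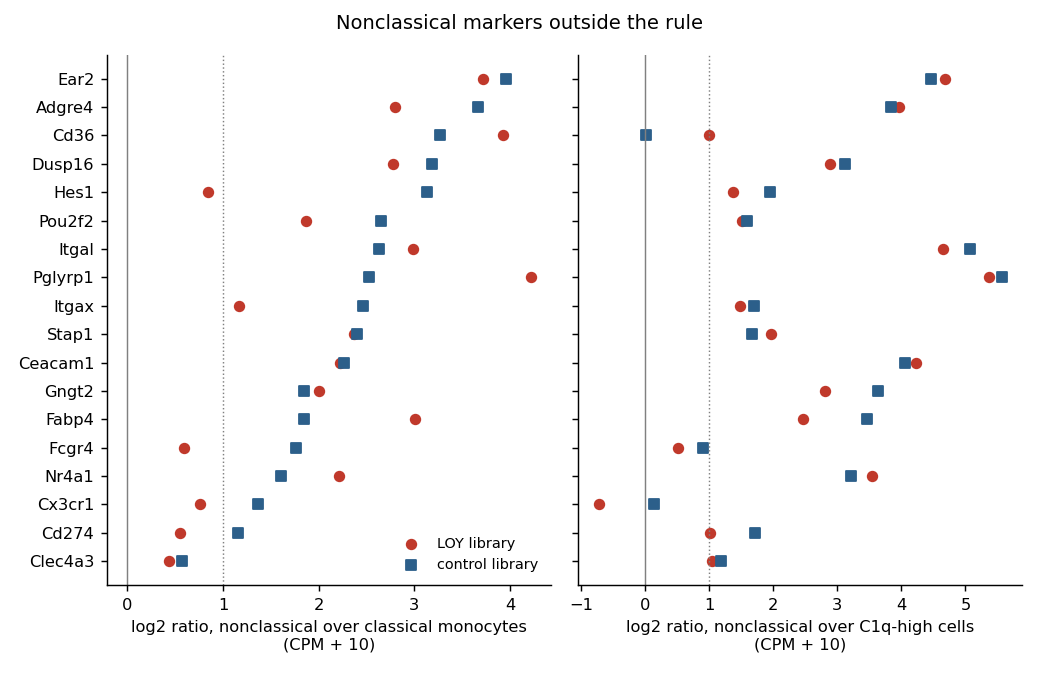
Log2 ratio of CPM + 10 for the 18 markers outside the rule, nonclassical monocytes over classical monocytes (left) and over C1q-high cells (right), LOY library as circles and control library as squares; the dotted line marks 2-fold. All 18 lie right of 0 over classical monocytes in both libraries, and over C1q-high cells Cx3cr1 lies left of 0 in the LOY library.

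Adhesion and trafficking genes set the nonclassical apart from the classical monocytes. Of 21 measured genes of this list, 8 were over 2-fold higher in nonclassical monocytes in both libraries, beside 6.29% of all measured genes. S1pr5, a sphingosine-1-phosphate receptor, had 80.4 CPM in nonclassical and 1.93 CPM in classical monocytes of the LOY library, and 106 and 1.04 CPM in those of the control library. Itga4, the alpha chain of VLA-4, had 774 and 213 CPM in the LOY library, and 754 and 286 CPM in the control library. Ceacam1, a homophilic adhesion molecule, had 372 and 71.6 CPM in the LOY library, and 294 and 53.2 CPM in the control library. Itgb1, Itgax, Cxcr4, Myo1g and Itgal completed the 8.

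Other groups separated along the same axis. Among 22 measured transcription factors, 5 were over 2-fold higher than in classical monocytes in both libraries, beside 6.29% of all measured genes. These were Nr4a1, Klf3, Pou2f2, Bcl6 and Tcf7l2. Maf was over 2-fold lower in both libraries, beside 2.05% of all measured genes. Of 12 measured survival genes, Bcl2, Bcl2a1a and Bcl2a1d were over 2-fold higher in both, beside 6.29% of all measured genes, and Bcl2 had 70.3 and 13.5 CPM in the LOY library, and 125 and 16.7 CPM in the control library. The Bcl2a1 copies are near identical and their values uncertain. Slc12a2, a sodium, potassium and chloride cotransporter, had 121 CPM in LOY and 258 CPM in control nonclassical monocytes and 0 UMIs in the classical monocytes of both libraries. Dusp16 and Dusp5, phosphatases of MAP kinases, the receptor kinase Grk3, the iron regulator Hfe and the kinase Stk10 were also among the 12 highest. Dcn headed that ranking, yet all 51 of its UMIs in the LOY library lay in 1 cell and 185 of 186 in the control library lay in 1 other cell. Dcn is one of the fibroblast markers counted below, and nearly all of those lay in the same cells.

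Classical markers and interferon-response genes stood lower in nonclassical than in classical monocytes. Of 11 measured classical markers 5 were over 2-fold lower in both libraries, among them Ccr2, Chil3, Fn1 and Ms4a4c, beside 2.05% of all measured genes. The list's median log2 ratio was -1.21 in the LOY library and -1.74 in the control library. Ccr2, the receptor that draws classical monocytes into tissue, was at 352 and 826 CPM in the LOY library, and at 227 and 1133 CPM in the control library. F13a1, the A subunit of coagulation factor XIII, was at 20.1 and 416 CPM in the LOY library, and at 18.8 and 543 CPM in the control library. Spp1, osteopontin, had 0 UMIs in all nonclassical monocytes and 129.6 CPM in LOY and 109.5 CPM in control classical monocytes. Of 14 measured interferon-response genes, 9 were over 2-fold lower in both libraries, beside 2.05% of all measured genes, with medians of -1.26 in the LOY library and -1.60 in the control library. Rsad2, Usp18 and Irf7 of that list, the chemokine Ccl2, the scavenger receptor Msr1, the complement factor Cfb, Thbs1, Lgals1, Fn1 and the high-affinity IgG receptor Fcgr1 were among the 12 lowest. Genes were ranked here from 100 CPM in the higher class upwards, with no minimum of UMIs in the members.

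Markers of other cell types were counted in the members. Those of macrophages, 10 genes that include Apoe, summed to 6189 CPM in LOY and 4457 CPM in control nonclassical monocytes, against 41872 and 26905 CPM in C1q-high cells, with Lyve1, Timd4 and Mertk at 0 in both libraries. Neutrophil markers summed to 3296 CPM in LOY and 2469 CPM in control members, of which 46.0% and 24.5% lay in 1 cell each, and 6 LOY and 11 control members had 3 or more such UMIs. Natural killer markers had 0 UMIs in LOY members and 108 in control members, 91 of them in 1 cell. Fibroblast markers had 79 UMIs in the LOY library, all in 1 cell, and 198 in the control library, of which 197 were in 1 cell. T cell markers had 0 UMIs in LOY and 5 in control members, haemoglobin transcripts 0 in both, and B cell markers 2 in each. Markers of conventional dendritic cells had 9 UMIs in LOY and 41 in control members, those of plasmacytoid dendritic cells, among them Bst2, 38 and 66, platelet markers 3 and 6, and cardiomyocyte markers 0 and 2. Endothelial markers had 7 UMIs in LOY members, all of Fabp4, and 127 in control members, of which 126 were Fabp4. Removing members with 3 or more UMIs of another type, macrophages aside and without Bst2 and Fabp4, left 29 LOY and 82 control cells, a removal chosen after these values were seen.

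Between the libraries, nonclassical monocytes from LOY marrow had higher interferon-response transcripts and lower Cebpb, Klf2, Nr4a1, Hes1 and MHC class I transcripts than those from control marrow. Over all 2927 measured genes the median log2 ratio of LOY over control was -0.10. Past 2-fold, 122 genes were higher (4.17%) and 314 were lower (10.7%) in LOY cells. The minimum of 30 UMIs is on the sum of both libraries, of which control cells hold most, so a gene could pass through control cells alone: 9 measured genes had 0 UMIs in LOY cells and 1 had 0 in control cells. With a minimum of 50 CPM in the mean of both libraries, chosen after these values were seen, 190 genes were higher and 236 lower, and with cells thinned to 1500 UMIs 50 were higher and 108 lower. The same genes in classical monocytes gave 1.78% higher and 5.77% lower, and in C1q-high cells 1.71% and 3.18%, where far more UMIs stand behind each value. No gene below was tested.

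Among the 12 genes highest in LOY over control, several rested on a single cell. All 40 UMIs of Postn, 80 of Sparc and 31 of Bgn, which encode extracellular matrix proteins, lay in 1 LOY cell, and without the top cell of each library these genes had 0 UMIs. The fatty acid binding protein gene Fabp5 had 94 UMIs in LOY and 16 in control cells, 59 of the 94 in 1 cell, and the chemokine gene Ccl5 had 60 and 75, with 50 and 70 in 1 cell of each library. The other genes were spread over more cells. Tmem176a, a membrane protein of myeloid cells, had 583 CPM in LOY and 75 CPM in control cells, a plain ratio of 7.77 (5.04 to 12.1), seen in 15 of 37 and 19 of 99 cells. Its neighbour Tmem176b had 462 CPM in LOY and 125 CPM in control cells. The remaining genes were Ly6a, which near-identical Ly6 genes may share, and the interferon-induced Rsad2, Ifi35, Oas3 and Ifit3.

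Among the 12 lowest, 7 had 0 UMIs in LOY cells. Gzma, a granzyme of natural killer cells, was one, but 69 of its 71 control UMIs lay in 1 cell. Pfdn2, a subunit of the prefoldin chaperone, had 0 UMIs in LOY cells and 64 in control cells, seen in 51 of 99. The limit of its exact conditional interval was 3.49-fold lower in LOY cells, and the folds that follow are the same limit. Yme1l1, a mitochondrial protease, had 0 and 52 UMIs, with a limit of 2.82-fold, and Anxa7, an annexin, 0 and 40, with 2.15-fold. The linker histone gene Hist1h1c had 0 and 41 UMIs, Klhl2 0 and 36 and Ccdc71l 0 and 33, with limits of 2.20-, 1.92- and 1.75-fold. Such a limit holds for a gene fixed beforehand. These were picked as the lowest of 2790 ranked genes, so the limits can overstate the difference. In C1q-high cells the log2 ratios were -1.42 for Pfdn2, -0.12 for Yme1l1, -0.46 for Anxa7, -0.05 for Hist1h1c, -0.16 for Klhl2 and -0.47 for Ccdc71l. Ddhd1, Asph, Bcas2 and Tmem38b had 1 UMI each in LOY cells against 44 to 49 in control cells. For Ddhd1, a phospholipase, the plain ratio was 0.0984 with an interval of 0.00244 to 0.575. Hist1h1c had 14 of its 41 control UMIs in 1 cell.

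Cebpb, with 51 UMIs in LOY and 1367 in control cells, was also among the 12 lowest. C/EBP beta, its product, is a leucine zipper factor upstream of Nr4a1 in mouse monocytes (chromosome 2, 167688915 to 167690418). It was at 512 CPM in LOY and 2848 CPM in control nonclassical monocytes, a plain ratio of 0.180 (0.133 to 0.238), with a UMI in 25 of 37 and 97 of 99 cells. After thinning to 1500 UMIs, 56.7% of LOY cells (17 of 30) and 94.9% of control cells (94 of 99) had a UMI. The log2 ratio was -2.45 here, -2.82 in classical monocytes and -2.55 in C1q-high cells, so the lower level was not confined to nonclassical monocytes.

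Of the 25 listed transcription factors 22 were measured. In LOY cells 6 of these stood over 2-fold lower and 1 higher, beside 10.7% and 4.17% of all measured genes. The list had a median of -0.43 beside -0.10 for all measured genes, and of -0.75 on thinned cells. Klf2, a Krüppel-like factor, was at 352 CPM in LOY and 1306 CPM in control cells, a plain ratio of 0.269 (0.186 to 0.378). Nr4a1 was at 342 CPM in LOY and 921 CPM in control cells, 0.371 (0.254 to 0.526), and 33.3% of thinned LOY cells and 74.7% of thinned control cells had a UMI. Hes1, a target of Notch signalling, was at 70.3 CPM in LOY and 344 CPM in control cells, 0.205 (0.0810 to 0.431). All 3 had lower levels in LOY cells, and their log2 ratios in classical monocytes were -1.98 for Klf2, -2.01 for Nr4a1 and 0.16 for Hes1, the last on 34.8 CPM in LOY and 30.2 CPM in control classical cells. In C1q-high cells they were -2.47 for Klf2, -1.75 for Nr4a1 and -1.56 for Hes1. The remaining factors over 2-fold lower were Irf8, with 141 CPM in LOY and 371 CPM in control cells, of which 30.3% of control UMIs lay in 1 cell, and Tcf7l2, with 40.2 and 127 CPM. Per cell, the whole list took a median of 0.57% of UMIs in LOY cells (0.09% to 1.58%) and 1.12% in control cells (0.24% to 1.77%), with overlapping ranges. Summed, its measured genes reached 5657 CPM in LOY and 10384 CPM in control cells. Cebpb, Klf2, Nr4a1 and Hes1 made up most of that difference, so the share per cell largely repeats these genes.

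**Figure D3:**
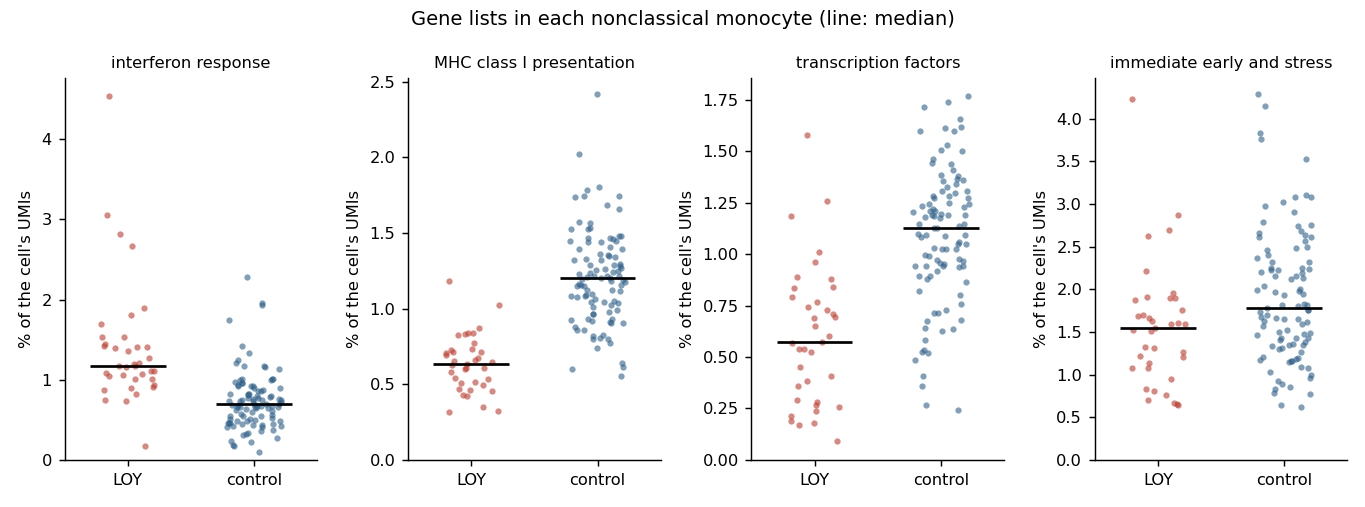
Share of each nonclassical monocyte's UMIs that fell on genes of 4 lists, LOY cells left of control cells, each point a cell and the line the median. Median shares were 1.17% in LOY and 0.69% in control cells for interferon response, 0.63% and 1.20% for MHC class I presentation, 0.57% and 1.12% for transcription factors and 1.54% and 1.78% for immediate early and stress genes, with overlapping ranges in all 4.

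Interferon-response genes stood higher in LOY nonclassical monocytes. Of 21 listed genes 20 had a higher CPM in LOY cells. Of the 14 measured, 8 were over 2-fold higher and 0 lower, beside 4.17% and 10.7% of all measured genes. Their median was 1.21, beside -0.10 for all measured genes. Isg15, a ubiquitin-like protein, was at 673 CPM in LOY and 185 CPM in control cells, a plain ratio of 3.63 (2.60 to 5.04), and 40.3% of its LOY and 34.8% of its control UMIs lay in 1 cell each. Its log2 ratio was 1.81 over all members and 1.29 over those with at least 5 UMIs of the outside markers. Irf7, a transcription factor that amplifies the response, was at 322 CPM in LOY and 110 CPM in control cells, 2.91 (1.82 to 4.6), in 15 of 37 and 35 of 99 cells. Rsad2, an antiviral enzyme also called viperin, was at 221 CPM in LOY and 37.5 CPM in control cells, 5.89 (3.02 to 11.7), seen in 7 LOY and 5 control cells, with 9 of its 22 LOY and 12 of its 18 control UMIs in 1 cell each. Ifitm3, which blocks viral entry, was at 7907 CPM in LOY and 3738 CPM in control cells, 2.12 (1.94 to 2.30), in 37 of 37 and 96 of 99 cells. Ifit3, Bst2, Parp14 and Rtp4 were the other genes over 2-fold higher.

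The list's summed share was higher across most LOY cells, but in both libraries Ifitm3 held more of its UMIs than all other listed genes together. The shares per cell below therefore follow Ifitm3 most, while Isg15 and Rsad2 lay more in single cells. Interferon-response genes took a median of 1.17% of UMIs in LOY cells (0.17% to 4.54%) and 0.69% in control cells (0.10% to 2.28%), and the cell with the most held 9.62% of the list's UMIs in LOY and 5.18% in control cells. That LOY cell also held all 79 fibroblast-marker UMIs and had 0 UMIs of the 18 outside markers. The ranges overlapped while the lower quartile of LOY cells, 1.01%, lay above the upper quartile of control cells, 0.90%. Summed, the measured genes of the list reached 13695 CPM in LOY and 6984 CPM in control cells, a plain ratio of 1.961 (1.84 to 2.09). The median was 1.09 over the 35 LOY and 96 control members with at least 5 UMIs of the outside markers, 0.86 without the members marked by other cell types and 0.90 with cells thinned to 1500 UMIs. In classical monocytes the median of the same genes was 0.58 and in C1q-high cells 0.59, and the difference between the sets of cells was not tested.

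Promoters of 3 interferon-response genes named above are shown because they carry the interferon-stimulated response element, the site bound by the complex that interferon activates. The sequences are the RefSeq promoters on GRCm38.p6, from 250 bases before to 50 bases after the start, each 5′ to 3′ along its gene: Isg15 at chr4:156200769-156201068 on the minus strand, Rsad2 at chr12:26456403-26456702 on the minus strand and Ifit3 at chr19:34583279-34583578 on the plus strand. Capitals mark matches to GAAANNGAAA on either strand.

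Isg15: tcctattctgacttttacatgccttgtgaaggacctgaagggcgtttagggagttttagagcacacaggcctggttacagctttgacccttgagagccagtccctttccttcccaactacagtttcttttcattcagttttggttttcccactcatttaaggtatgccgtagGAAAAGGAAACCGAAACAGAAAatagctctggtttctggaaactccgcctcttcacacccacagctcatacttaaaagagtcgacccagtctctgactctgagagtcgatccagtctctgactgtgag

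Rsad2: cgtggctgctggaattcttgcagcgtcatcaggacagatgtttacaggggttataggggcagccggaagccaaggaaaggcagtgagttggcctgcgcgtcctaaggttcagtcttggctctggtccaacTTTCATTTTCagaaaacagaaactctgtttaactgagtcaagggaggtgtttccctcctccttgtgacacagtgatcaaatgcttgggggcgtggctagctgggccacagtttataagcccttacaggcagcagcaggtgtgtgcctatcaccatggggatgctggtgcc

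Ifit3: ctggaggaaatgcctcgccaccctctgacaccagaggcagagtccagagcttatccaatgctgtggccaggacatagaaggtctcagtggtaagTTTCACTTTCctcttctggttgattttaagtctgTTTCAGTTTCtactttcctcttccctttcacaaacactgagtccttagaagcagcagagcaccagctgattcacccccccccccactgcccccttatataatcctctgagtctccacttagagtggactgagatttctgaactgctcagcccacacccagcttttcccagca

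Isg15 holds 3 overlapping matches that run into each other, Rsad2 1 match and Ifit3 2 separate matches. Of the 21 listed genes 14 had a promoter in the RefSeq table, and 9 of these 14 held the motif: Bst2, Gbp2, Ifi213, Ifit1, Ifit3, Ifitm3, Isg15, Rsad2 and Stat2. The motif stood in 60% of the list's 15 promoters and in 3.44% of all 32851 promoters of the table. Among nonclassical markers it was found in 0 of the 5 rule genes and in 1 of 13 others, Fcgr4. The element AAAGGTCA, to which NR4A receptors bind as monomers, was searched on both strands as well and stood in 1.51% of all promoters, in 0 of the 5 rule genes and in 0 of 13 other markers. A match is a description of the letters, and its absence says only that they are not in this window.

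MHC class I presentation was lower in LOY nonclassical monocytes. Of 12 measured genes 5 were over 2-fold lower and 0 higher, beside 10.7% and 4.17% of all measured genes, with a median of -0.90. B2m, the light chain of class I molecules, was at 1507 CPM in LOY and 3819 CPM in control cells, a plain ratio of 0.395 (0.332 to 0.466). The heavy chain genes H2-D1, at 1738 CPM in LOY and 3198 CPM in control cells, and H2-K1, at 1316 and 2286 CPM, were lower by less than 2-fold, and their reads can be shared with other H2 genes. Psmb9, a subunit of the immunoproteasome, was at 121 CPM in LOY and 289.6 CPM in control cells, whereas Psmb10, another such subunit, was at 362 and 235 CPM. Per cell the list took a median of 0.63% of UMIs in LOY cells (0.31% to 1.19%) and 1.20% in control cells (0.55% to 2.42%). The median log2 ratio was -0.56 with cells thinned to 1500 UMIs, -0.51 without members marked by other cell types, -0.14 in classical monocytes and -0.65 in C1q-high cells. MHC class II genes had a median of 0.09 over 7 measured genes, with none past 2-fold. A small subset of cells carried that value. The 8 of 37 LOY and 11 of 99 control members with at least 2% of their UMIs on the list, a level chosen after these values were seen, held 86.0% and 71.3% of the list's UMIs. Outside markers took a median of 0.38% of UMIs in those LOY cells and 0.95% in the other LOY cells, and 0.60% and 1.10% in the control library. The MHC class II median was 0.87 without members marked by other cell types and 1.59 on thinned cells.

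**Figure D4:**
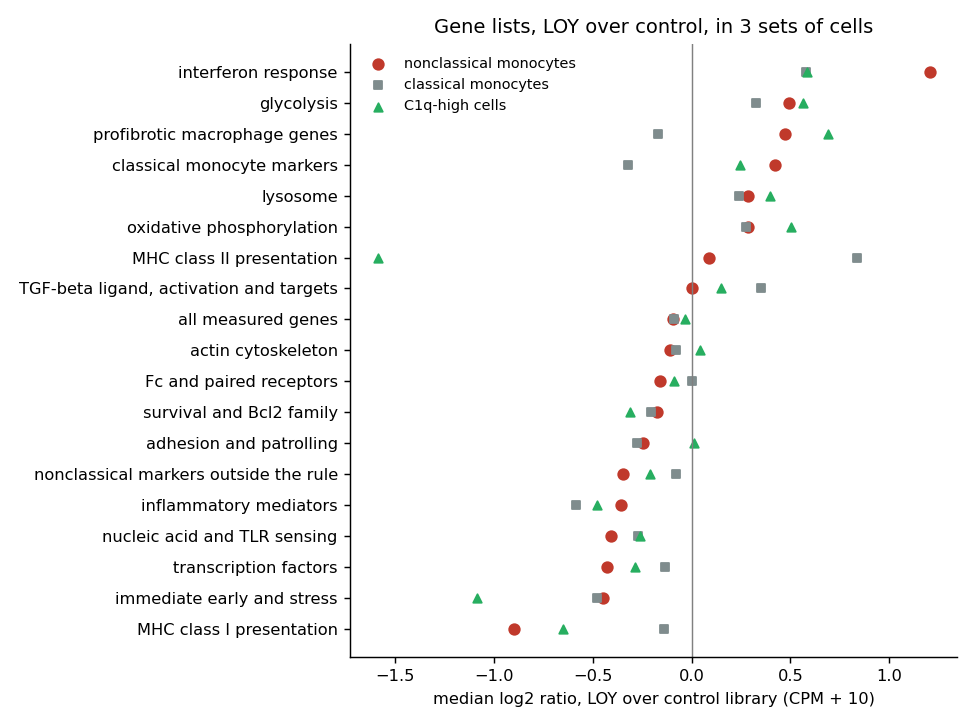
Median log2 ratio of CPM + 10, LOY over control, for 18 gene lists and for all measured genes in nonclassical monocytes (circles), classical monocytes (squares) and C1q-high cells (triangles). In nonclassical monocytes interferon response was highest at 1.21 and MHC class I presentation lowest at -0.90, and MHC class II presentation differed most between the sets, at 0.09, 0.84 and -1.59.

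Markers of nonclassical monocytes outside the rule stood on balance lower in LOY cells. Of the 18, 14 had a lower CPM in LOY cells, 3 stood over 2-fold lower and 0 higher, beside 10.7% and 4.17% of all measured genes (Nr4a1, Hes1 and the fatty acid binding protein gene Fabp4), with a median of -0.35 and a summed ratio of 0.804 (0.742 to 0.870). Fabp4 had 70.3 CPM in LOY and 262.5 CPM in control cells. Cx3cr1 was at 332 CPM in LOY and 404 CPM in control cells, 0.820 (0.549 to 1.19), and Fcgr4, a low-affinity IgG receptor, at 412 and 388 CPM, 1.06 (0.739 to 1.497). Both intervals hold 1. Itgal was at 452 CPM in LOY and 756 CPM in control cells, 0.598 (0.428 to 0.816). Of the adhesion list 0 of 21 measured genes were over 2-fold higher and 2 lower, beside 4.17% and 10.7% of all measured genes. The 2 were Cxcr4, a chemokine receptor, at 171 CPM in LOY and 458 CPM in control cells, and Vasp, an actin regulator, at 100.5 and 227 CPM. Per cell, adhesion genes took a median of 0.98% of UMIs in LOY cells and 1.07% in control cells. Csf1r, the receptor for the growth factor of these cells, was at 1015 CPM in LOY and 629 CPM in control cells, 1.61 (1.27 to 2.03).

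Genes of the cytoskeleton split. Actb was at 23109 CPM in LOY and 11019 CPM in control cells, a plain ratio of 2.10 (2.00 to 2.20), and Pfn1, which binds actin monomers, at 422 and 1725 CPM, 0.245 (0.175 to 0.334). The actin regulators Capg, higher, and Gsn, lower, also passed 2-fold, but 79.9% of the control UMIs of Gsn lay in 1 cell. In classical monocytes the log2 ratios were 1.17 for Actb and -1.98 for Pfn1, close to the 1.07 and -2.01 of nonclassical monocytes.

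Immediate early and stress genes, some of which tissue digestion can induce, had a median of -0.45, and of -1.17 on cells thinned to 1500 UMIs. Of 24 genes 1 was over 2-fold higher and 5 lower, beside 4.17% and 10.7% of all measured genes. In classical monocytes the median was -0.48 with 0 higher and 7 lower, and in C1q-high cells -1.09 with 0 higher and 12 lower. Btg2, an antiproliferative factor, was at 391.9 CPM in LOY and 1104 CPM in control nonclassical monocytes, and the RNA-binding Zfp36 at 472 and 1046 CPM. Ier3 was higher, at 402 CPM in LOY and 162.5 CPM in control cells, with 50% of its LOY UMIs in 1 cell, and Fos had nearly equal levels of 1598 and 1511 CPM. Nr4a1 is also an immediate early gene in many cells. Inflammatory mediators had a median of -0.36 over 16 measured genes, and Il1b was at 1557 CPM in LOY and 2261 CPM in control cells, 0.689 (0.578 to 0.816). Cxcl10, an interferon-induced chemokine under the minimum of 30 UMIs, had 27 UMIs in 2 LOY cells and 1 UMI in control cells.

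The study's title concerns cardiac fibrosis, so genes of TGF-beta signalling and profibrotic macrophages were read as well. Tgfb1, the ligand, was at 623 CPM in LOY and 304 CPM in control nonclassical monocytes, a plain ratio of 2.05 (1.5 to 2.77), with a UMI in 25 of 37 and 68 of 99 cells. The log2 ratio of 1.01 lay just past 2-fold, and it was 0.98 without the top cell of each library, 0.54 in classical monocytes and 0.40 in C1q-high cells. Of 13 measured genes of the TGF-beta list 1 was over 2-fold higher and 2 lower, beside 4.17% and 10.7% of all measured genes. The list had a median of 0.00, and both lower genes, Furin and Tgif1, had 2 and 3 UMIs in LOY cells. Of 14 measured profibrotic macrophage genes 3 were over 2-fold higher (Fabp5, Fn1 and Trem2) and 1 lower (Cd9), beside the same shares of all measured genes, with a median of 0.47. Trem2, a lipid receptor of macrophages, was at 181 CPM in LOY and 64.6 CPM in control cells, and the tetraspanin Cd9 at 100.5 and 421 CPM. Spp1, Arg1 and Pdgfa had 0 UMIs in all members, and Gpnmb had 1 UMI in LOY and 0 in control cells.

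Metabolic and lysosomal lists had medians slightly above 0. Glycolysis had 0.49 over 10 measured genes with Tpi1, triosephosphate isomerase, past 2-fold at 291 CPM in LOY and 115 CPM in control cells. Oxidative phosphorylation had 0.28 over 19 genes with Cox8a past 2-fold at 1125 and 483 CPM, and lysosome 0.29 over 17 with none past 2-fold. Fc and paired receptors had -0.16 over 23 genes, survival genes -0.17 over 12, nucleic acid and TLR sensing -0.41 over 8 and the actin list -0.11 over 20. Classical markers had 0.42 over 11 genes, with Hp at 764 CPM in LOY and 360 CPM in control cells and Ccr2 at 352 and 227 CPM. Cell cycle genes were mostly absent: 3 of 17 were measured, and Mki67 and Top2a had 0 UMIs in LOY cells and 20 and 18 in control cells, of which most lay in 1 cell.

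**Figure D5:**
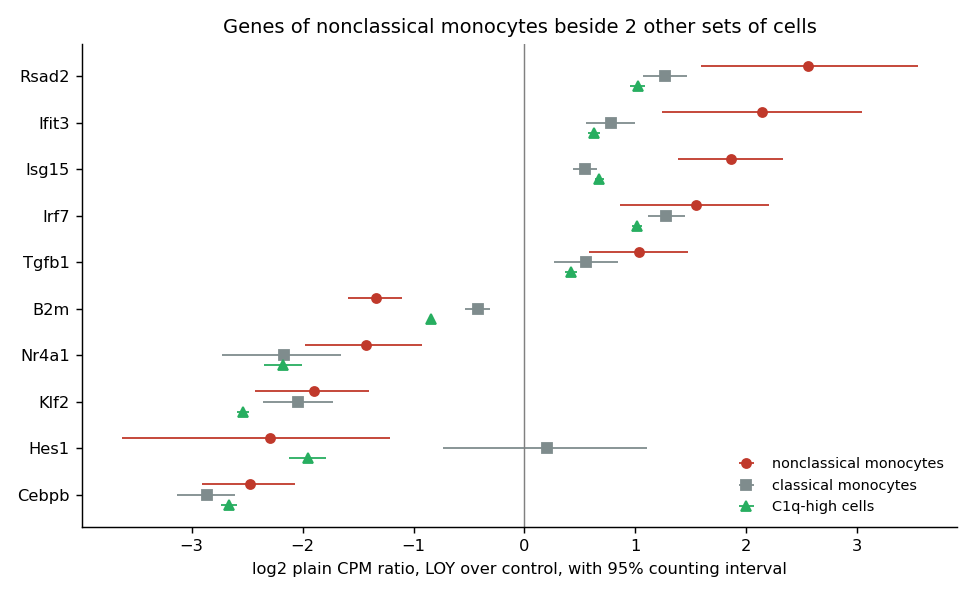
Log2 of the plain CPM ratio, LOY over control, with its counting interval for 10 genes in nonclassical monocytes (circles), classical monocytes (squares) and C1q-high cells (triangles). Cebpb, Klf2 and Nr4a1 lie left of 0 in all 3 sets, Rsad2, Ifit3, Isg15, Irf7 and Tgfb1 right of 0 in all 3, and intervals are wider in nonclassical monocytes than in classical monocytes for 9 of the 10, Nr4a1 being the exception.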

How the data were processed

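Per the labels' protocols, sorted leukocytes pooled from 3 hearts per group gave 1 droplet 3′ library each; Cell Ranger (version 5.0.0) and the build mm10 are named in the entries per the submitters' processing notes. The deposited values are UMI counts per gene and barcode, not normalized, over 32285 genes and the RFP sequence. Barcodes were kept from 500 UMIs and 200 genes upwards, with mitochondrial transcripts at 10% or less (Python 3.11.15, numpy 2.4.6, scipy 1.17.1, pandas 2.3.3, scanpy 1.11.5, anndata 0.12.19). Doublets were kept, and an alternative removed the barcodes with the highest simulated-doublet scores, 240 LOY and 424 control. Counts were summed per class and library and given as CPM. Ratios use log2(CPM + 10), and counts and medians use genes with at least 30 UMIs over the members of both libraries. Intervals are exact and cover counting error only. With 1 library per group no edgeR or other test was possible, and no p-value is given. The computation was tested on simulated data. Named genes were those of the rule; the 12 highest and 12 lowest against classical monocytes (same sign in both libraries, at least 100 CPM in the higher class, with no minimum of UMIs in the members) and in LOY against control (at least 50 CPM); up to 5 each way whose LOY ratio stood furthest above or below both other classes; the 18 outside markers; and the 2 highest and 2 lowest of each of 21 gene lists. Mitochondrial, ribosomal and globin genes and unnamed models were left out of rankings. Other list members named here were chosen after their values were seen, and 12 marker lists covered other cell types. Members and lists were chosen with earlier results of these data known. Gene coordinates are from GENCODE M21 on mm10, and promoters from RefSeq on GRCm38.p6. Reads of near-identical genes (Bcl2a1, H2, Pilrb, Ly6, Ifit3, Ear and Ceacam copies) may be shared. Values of some listed genes are not reported here.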

Additional observations from a re-analysis of the deposited data

Results flagged for a closer look

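Stmn1, stathmin, a microtubule regulator of dividing cells (mm10 chromosome 4, 134468320 to 134473843), stood out because its log2 ratio of LOY over control was -1.84 in nonclassical monocytes but 2.20 in classical monocytes and 1.5 in C1q-high cells. The nonclassical value rests on 2 UMIs in LOY cells (20.1 CPM) and 47 UMIs in control cells (97.9 CPM), and 43 of those 47 lay in 1 control cell. The difference between the sets of cells was not tested.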

How the results depend on the processing

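No paired analysis was possible because each group is 1 library, and for the same reason no replicate could be left out. Over the alternatives, 268 of 286 list medians and 505 of 561 gene ratios stayed within the counting interval of the reported value. No value whose interval excluded 0 took the opposite sign, but some fell to 0. Postn, Sparc and Bgn kept their sign in 12 of 17 alternatives each and Gzma in 14 of 17. On cells thinned to 1500 UMIs the share of nonclassical monocytes was 0.360% in the LOY and 1.04% in the control library, and 50 genes were over 2-fold higher and 108 lower in LOY cells. The counts were 52 and 99 with a pseudocount of 50 CPM, 1007 and 1429 with no minimum of UMIs, 362 and 707 past 1.5-fold, and 190 and 236 with a minimum of 50 CPM in the mean of both libraries, added after seeing the data, against 122 and 314 as reported. Thinning also gave medians of 0.90 for interferon response, -0.56 for MHC class I, 1.59 for MHC class II, -0.75 for transcription factors and -1.17 for immediate early genes. Removing members with markers of natural killer, T, B, neutrophil or plasmacytoid dendritic cells, Bst2 included, gave a control share of 1.14%, an interferon median of 0.91 and an MHC class II median of 0.79. The removal chosen after seeing the data gave 0.86, 0.87 and, for MHC class I, -0.51. The MHC class II median was 0.95 with a marker sum of at least 3 and 0.82 with Ly6c2 at 0, against 0.09 as reported, and its sign held in 15 of 16 alternatives. Over all alternatives the interferon median ranged from 0.86 to 1.30. The TGF-beta median of 0.00 kept its sign in 10 of 16. The cause of these shifts was not tested.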
